A study of Oncorhynchus mykiss with 2 samples.

Results

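A group of 219 array probes was far brighter in testicular somatic cells than in type A spermatogonia of the immature male rainbow trout, and was still measurable in both. These probes were chosen by their measured values alone. A probe was selected on detection in both populations and on a level in somatic cells at least 6.5 above that in spermatogonia on the log2 scale, which is 90.5-fold. They made up 219 of the 55916 probes left after outlier spots were dropped, and 219 of the 37959 probes detected in both populations. The level of a probe is the mean log2 signal of its spots minus the log2 of the 75th percentile of all non-control spots on the same array, so that a level of 0 equals that percentile. A probe counted as detected when the scanner software flagged over 50% of its spots as well above background.

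The testicular somatic cells and the type A spermatogonia both came from male fish that carry pvasa-GFP, a transgene in which the promoter of the germ cell gene vasa drives green fluorescent protein in spermatogonia. Both populations were isolated by fluorescence-activated cell sorting, and the labels do not say how the somatic gate was set, how many fish were pooled, or how old they were. RNA from either population carried the same dye, Cy3, and went onto a single array, which gives 2 arrays and no replicates. No difference given here was tested, and having 1 array per population limits the precision. The arrays sat at different positions of 1 slide, so array position and population cannot be told apart. In sorted bulk samples like these, fewer cells of a type and less RNA per cell cannot be told apart either. Both arrays had a similar share of spots well above background (79.3% in somatic cells and 79.6% in spermatogonia), and no spot of the selected probes was saturated.

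The somatic part of a fish testis is a mixture. Sertoli cells surround and nourish the germ cells, Leydig cells make steroid hormones, and peritubular cells, blood vessels, connective tissue and blood cells make up the rest. Type A spermatogonia are early germ cells and include those that renew themselves and start sperm production. Which genes the probes represent was not analysed here. Probes go by custom numbers and by the contig or single read behind each of them, the files hold no probe sequences, and 0 of these names matched a gene table of 72772 rainbow trout genes. Marker genes of the cell types were therefore not examined, and neither was the purity of either sort.

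By the rule, the selected probes had to be bright on the somatic array, since a level detected in spermatogonia plus 6.5 lies above the 75th percentile there. The values that follow describe them. Their levels in somatic cells ran from 1.77 to 9.30 with a median of 4.49, while their levels in spermatogonia ran from -4.96 to 1.96 with a median of -3.05. As signals on the linear scale, before scaling between the arrays, the medians were 11057 in somatic cells and 93.2 in spermatogonia. The median selected probe lay at the 98.2 percentile of all probes on the somatic array and at the 41.5 percentile on the spermatogonial array. Each of the 219 probes was at or above the 91.1 percentile in somatic cells. Together they carried 6.51% of the summed probe signal in somatic cells and 0.0622% in spermatogonia, although they were 0.392% of the probes.

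The difference, taken as somatic cells minus spermatogonia, ran from 6.502 to 9.63 with a median of 7.13, against -0.03 over all probes detected in both populations. These values chose the probes and are a description. The selected probes were 0.577% of the 37959 probes detected on both arrays, and 0% (0 probes) of these differed by as much in the direction of spermatogonia. Probes detected in only 1 population are outside both counts. As a share of the somatic signal after scaling, the spermatogonial signal was 0.126% at the lowest, 0.713% at the median and 1.10% at the highest.

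The signal in spermatogonia was not uniformly faint. In spermatogonia 49 of the 219 lay within 1 log2 unit of the lowest detected level on that array (-5.29), and 103 lay within 2 units. The other 116 were higher. The level in spermatogonia exceeded the median of all probes on that array (-2.34) for 79 probes, and it exceeded the 75th percentile of the array's spots for 14. The lowest signal of a selected probe in spermatogonia was 25.4, against a median of 5.05 and a 95th percentile of 5.91 for 300 negative control spots. Of these control spots, 4 reached 25.4 or more, the brightest of them at 109. Every spot was well above background in somatic cells for all 219 probes. In spermatogonia this held for 211 probes, and 8 had at least 1 spot that was not. By the detection rule such a spot was possible only in the 94 probes with 3 spots.

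The probe brightest in somatic cells was CUST_10705_PI425928001, which was made from a single read and has 1 spot. Its signal was 313472 in somatic cells and 1130 in spermatogonia. On the log2 scale its level was 9.30 in somatic cells and 0.56 in spermatogonia, a difference of 8.75 or 429-fold. Its signal stood at the 99.99 percentile of all probes on the somatic array, and even the lower signal was above the 75th percentile of the spermatogonial array. The scanner software gave this spot an error of 31347 in somatic cells and 113 in spermatogonia.

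The probe highest in spermatogonia was CUST_6290_PI425928308, made from contig YGL02.3773.C3, with 3 spots. Its signals were 190660, 184308 and 183233 in somatic cells, against 2993, 2913 and 3082 in spermatogonia. The levels were 8.55 in somatic cells and 1.96 in spermatogonia, a difference of 6.59 (96.1-fold after scaling) with an SD of 0.055 over its 3 spots. It was the second brightest of the selected probes in somatic cells and stood at the 93.2 percentile of all probes in spermatogonia.

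The 10 probes brightest in somatic cells were set beside the 10 with the largest differences. Among the 10 brightest, somatic levels ran from 7.58 to 9.30 and spermatogonial levels from -1.45 to 1.96. Their differences ran from 6.59 to 9.46, with a median of 7.01. The 10 with the largest differences had somatic levels of 4.62 to 8.01 and spermatogonial levels of -4.96 to -1.45, with differences of 9.35 to 9.63. Of these, 1 probe was also among the 10 brightest. Groups of 10 drawn at random from 219 probes would also share few, so this overlap is not read as a result. Both orders use the values that chose the probes. Either group held 7 contig probes and 3 single-read probes. The 5 probes highest in spermatogonia were all contig probes from 4 sets, and all 5 were among the 10 brightest in somatic cells.

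Across the selected probes the levels of the populations rose together. Pearson's r was 0.865 and Spearman's rho 0.840 over 219 probes, which share the same pair of arrays and are not independent. The selection shapes this relation, since a probe had to be detected in spermatogonia and to keep a difference of at least 6.5. The spread was 1.59 in somatic cells and 1.60 in spermatogonia (SD over probes), whereas the difference had an SD of 0.83. The rule cuts the difference off at 6.5, so its smaller spread is partly set by the selection. The difference holds the spermatogonial level with a minus sign, so larger differences among dimmer probes are partly built in. Of the 67 selected probes with a spermatogonial level under -4, the middle 50% had differences of 6.84 to 8.23, and 12 were at 9 or more. Of the 14 probes at a spermatogonial level of 0 or more, the middle 50% had differences of 6.64 to 7.06, and none was at 9 or more. That last group is small.

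The number of probes thinned out with the size of the difference, with 1 interruption. There were 92 probes between 6.5 and 7, then 55, 30, 13 and 8 in the next bins of 0.5, then 17 between 9 and 9.5 and 4 above. The 21 probes at 9 or more were 10 contig probes from 8 sets and 11 single-read probes. Their levels spanned 4.19 to 8.01 in somatic cells and -4.96 to -1.45 in spermatogonia, so they were not a group of 1 brightness. The 8 probes between 8.5 and 9 spanned 4.17 to 9.30 in somatic cells and -4.73 to 0.56 in spermatogonia. With counts this small and 1 array per population, whether the rise at 9 is more than scatter was not tested.

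The threshold did not fall in a gap. The 3 probes just inside it had differences of 6.502, 6.503 and 6.505, and the 3 just outside had 6.495, 6.495 and 6.494. Between 6.5 and 6.6 there were 17 selected probes, and between 6.4 and 6.5 there were 21 probes that were not selected. The bin from 6 to 6.5 held 90 probes, about as many as the 92 of the bin from 6.5 to 7.

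Even among bright somatic probes detected in both populations, differences of this size were the exception. Over the 4869 probes detected in both populations and within the selected probes' range of somatic level, the median difference was 1.02, the median level in spermatogonia was 1.90, and 4.50% were selected. The share rose with brightness and then dropped. It was 0.799% of probes with a somatic level of 1 to 3, 3.66% at 3 to 4, 11.1% at 4 to 5, 12.6% at 5 to 6 and 13% at 6 to 7. At 7 to 8 it was 6.43% (11 of 171 probes), and at 8 to 10 it was 7.23% (6 of 83). Dim somatic probes could not be selected easily, because a difference of 6.5 then falls below the detection limit in spermatogonia. Probes not detected in spermatogonia are outside these counts. Of those detected in somatic cells, 139 differed by at least 6.5 with their spermatogonial level set no lower than the lowest detected one.

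For probes with more than 1 spot, repeat spots showed how well the difference was measured within an array. Of the selected probes, 116 had 2 or 3 spots, all of them contig probes, and 103 had 1. All 102 single-read probes had 1 spot, so this spread is unknown for them. Over the 116, the SD of the difference over repeat spots had a median of 0.086 and a 95th percentile of 0.293. Over the 20966 probes with repeat spots detected in both populations, these were 0.068 and 0.294. The spread was larger for dim spermatogonial signals. It had a median of 0.116 in the 58 probes below their median spermatogonial level and 0.066 in the other 58. In somatic cells the median spot SD of the level was 0.041, and in spermatogonia it was 0.076. The scanner software's own error was 10% of the signal for the median spot in somatic cells and 11.3% in spermatogonia, where it reached 40.9% at its highest.

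Of the 116 probes with repeat spots, 7 had at least 1 spot with a difference under 6.5, the lowest at 6.17. In the other 109 each spot was at or above it, which the rule makes likely, since the mean of the same spots chose the probes. The probe with the largest difference, made from a contig of 3 spots, had spot differences from 9.18 to 10.2 and an SD of 0.508. Its level was 4.67 in somatic cells and -4.96 in spermatogonia, the lowest spermatogonial level of the selected probes. The probe with the widest spread (SD 0.528) held 2 spots, at 9.12 and 9.87. These spots are repeats on 1 array, and variation among fish, sorts or labelling reactions is not part of this spread.

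The kind of probe did not set the selected ones apart by more than a few percentage points. Contig probes numbered 117 (53.4%) and single-read probes 102, and contig probes were 55.3% of all probes detected in both populations and 55.4% of those in the same range of somatic level. Seen the other way, 0.557% of detected contig probes and 0.601% of detected single-read probes were selected. The median difference was 7.09 for the selected contig probes and 7.18 for the single-read probes. Their median levels in somatic cells were 4.63 and 4.34, and in spermatogonia -2.99 and -3.05, in the same order.

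The selected probes lay scattered over the array. Their 429 spots occupied 292 of 528 rows and 168 of 199 columns, and spots of selected probes stood side by side in a row at 1 place. Of these spots 45.0% lay in the upper rows of the array and 48.0% in the left columns, each split at the middle, against 50.1% and 50.1% for the spots of all probes detected in both populations. The median signal of the spots beside them in the row was 120 for somatic cells and 160 for spermatogonia. For all probes detected in both populations, the neighbouring spots had medians of 128 in somatic cells and 193 in spermatogonia. The neighbours of the selected spots were thus slightly dimmer than usual on both arrays.

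The selected contigs were grouped into sets by a number in their names. Other contigs can carry the same number, and the sources used here do not say what that number stands for. The 117 selected contigs fell into 94 sets. Of these, 78 held 1 selected contig, 11 held 2 and 5 held at least 3. Whether contigs of a set belong to 1 gene was not analysed here, so the 219 probes are not counted as separate genes. In 47 of the 94 sets the selected contig was the only one on the array. In 12 of the other 47 sets, which have more than 1 contig on the array, each contig was selected.

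Among selected contigs of the same set, the difference varied less than the level. Over all 219 selected probes the SD was 0.83 for the difference, 1.59 for the somatic level and 1.60 for the spermatogonial level. The threshold bounds the difference from below and detection bounds the levels, so at least part of this is built in. How large that part is was not tested, and these values cannot show whether anything remains beyond it. Over the 16 sets with at least 2 selected contigs, which held 39 of them, the pooled SD within sets was 0.31 for the difference, against 1.19 for the level in somatic cells and 1.23 for that in spermatogonia. The range of the difference within a set had a median of 0.27 and was at most 1.10, and it was under 0.5 in 11 of the 16 sets. The range of the level in somatic cells was at least 1 in 9 of them. The widest range of somatic level was in set 298, whose 2 contigs stood at 2.77 and 7.09 in somatic cells, 20.1-fold apart. Their levels in spermatogonia were -3.76 and 0.59, and their differences were 6.52 and 6.51. Both differences lie just above the threshold of 6.5, so their closeness is no sign of a ratio shared within the set. These values hold for selected contigs and not for whole sets.

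Set 4330 held the most selected contigs, 5 of its 6. Their levels in somatic cells were 7.60, 7.40, 7.91, 8.51 and 7.17, and those in spermatogonia 0.81, 0.50, 0.99, 1.64 and -0.14. The differences were 6.79, 6.90, 6.92, 6.87 and 7.32, so that the contigs stood in the same order of level in both populations. All 5 were bright in somatic cells, and 4 of them were above the 75th percentile in spermatogonia too. The signal of the remaining contig was 29.4 in somatic cells and 5.07 in spermatogonia, where it was not well above background.

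In set 3131, 3 of 4 contigs were selected. Their levels in somatic cells were 6.36, 6.37 and 8.08, and in spermatogonia -0.54, -0.94 and 1.27, with differences of 6.90, 7.31 and 6.81. The contig left out stood at 0.76 in somatic cells and -3.12 in spermatogonia, a difference of 3.88. It too was higher in somatic cells, by a smaller amount.

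In the other 3 of these sets each contig was selected. In set 7530 the contigs stood at 6.63, 7.01 and 7.94 in somatic cells and -0.23, 0.11 and 0.83 in spermatogonia, with differences of 6.86, 6.90 and 7.11. Those of set 8945 stood at 5.24, 4.02 and 5.27 in somatic cells and -1.68, -2.88 and -1.55 in spermatogonia, with differences of 6.92, 6.90 and 6.81. These 2 were the tightest of the 5 sets, with ranges of 0.25 and 0.11 in the difference. Set 5753 was the widest of the 5, with differences of 7.67, 6.57 and 7.09 where the contigs stood at 4.49, 4.74 and 5.77 in somatic cells and -3.19, -1.83 and -1.32 in spermatogonia.

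Sets with a contig at a difference of 8.5 or more and a second contig on the array were of 2 kinds. In 3 sets both contigs were selected, with differences close to each other. The 2 contigs of set 983 differed by 9.63 and 9.35, standing at 4.67 and 4.62 in somatic cells and -4.96 and -4.73 in spermatogonia. The 2 contigs of set 6746 differed by 9.45 and 9.17, standing at 4.83 and 4.97 in somatic cells and -4.61 and -4.20 in spermatogonia. The contigs of set 2667 differed by 8.98 and 9.12, standing at 6.42 and 5.60 in somatic cells and -2.57 and -3.52 in spermatogonia.

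In the other 3 such sets only 1 of the 2 contigs was detected in both populations. The selected contig of set 7597 differed by 9.61, and its other contig gave 194 in somatic cells as signal, against 5.28 in spermatogonia, where it was not well above background. The selected contig of set 2602 differed by 8.90, and its other contig had signals of 1358 in somatic cells and 4.87 in spermatogonia, again not well above background there. The selected contig of set 1926 differed by 8.79, while its other contig, with 14.1 in somatic cells and 5.26 in spermatogonia, was not well above background on either array.

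The contigs that share a set with a selected one but were not selected themselves mostly leaned the same way. There were 60 of them in 35 sets, and 42 were detected in both populations. Their median difference was 3.91, with a range from -2.81 to 6.495, and 36 of the 42 (85.7%) were higher in somatic cells, against 46.1% of all contig probes detected in both populations. A difference of 2 or more in log2 was found for 27 (64.3%), against 12.5% of all probes detected in both populations, and 3 (7.14%) had -2 or less, against 12.8% of such contig probes. Of all 60, 14 (23.3%) were detected in somatic cells alone, 0 in spermatogonia alone and 4 (6.67%) in neither. Over all 28578 contig probes these shares were 6.94% in somatic cells alone, 7.45% in spermatogonia alone and 12.2% in neither. The shares of unselected contigs count contigs and not sets, and contigs of a set need not be independent. The comparison is also not matched for brightness. The unselected contigs had a median somatic level of 2.77, against -1.15 over all probes detected in both populations. Probes in the selected probes' range of somatic level had a median difference of 1.02. How far the lean goes with brightness was not tested. Set 30 weighs on the shares of unselected contigs the most, with 18 contigs on the array, 14 of them detected in both populations and 1 selected.

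Scaling and background correction changed how many probes passed the threshold. Under the settings tried they turned the direction of none of the 219, which is no sign of stability, since the size of the difference chose the probes. After normexp background correction 101 probes passed the threshold with 75th percentile scaling and 58 with quantile scaling, 110 passed without scaling and 96 with scaling to spike-in controls, and each of these was among the 219. Of the 219, the authors' deposited values put 159 past the threshold, and the lowest difference of any of the 219 there was 5.95.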

How the data were processed

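The authors deposited scanner output that gives the linear intensity of every spot. Per the file headers the software was Agilent Feature Extraction 10.7.3.1 and the custom design 034067, and the submitters' processing notes name version 10.7. The processed signal is background-subtracted and detrended within the array and not scaled between arrays, per the file headers. The flags used (outlier, detection and saturation), which the authors deposited as other values of 0 or 1, come from the same software. The authors also deposited a value table, taken as log2 because its columns followed the log2 signals of their arrays with slopes of 0.983 in somatic cells and 1.02 in spermatogonia. The median of each column is 6.97. How it was normalized the sources used here do not state.

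Spots marked as outliers on either array were dropped, which left 55916 of 55928 probes. Levels were computed with Python 3.11.15, numpy 2.4.6 and pandas 2.3.3. Normexp (offset 50, on median spot signals), quantile scaling and loess (span 0.7) used limma 3.58.1 in R 4.3.3. With 1 array per group no test was run. The calculation was tested on simulated levels with known differences and the same spot noise for all probes. Detection flags were those of the real arrays, so the simulation checked the arithmetic and not the selection of dim probes. The selected probes and the quantities described were chosen with earlier results of these data known. The probes named by number are the brightest in somatic cells and the highest in spermatogonia. Others are described by their place in the order of level or difference, or by contig set. Set 298 and the sets of 2 contigs with a difference of 8.5 or more were picked after their values were seen, as were the bins of the difference. The planned gene lists and markers were not computed, since no probe carried a gene name.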

Additional observations from a re-analysis of the deposited data

How the results depend on the processing

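Against 219 probes and a median difference of 7.13, no scaling gave 110 probes and a median of 6.502 over the 219, and scaling to 5 of 10 spike-in probes gave 96 and 6.35. Both settings add a constant to each difference (-0.63 and -0.78), so the excess of the group's median over that of all probes detected in both populations stayed at 7.16. Normexp followed by 75th percentile scaling gave 101 probes and a median of 6.41, and followed by quantile scaling it gave 58 and 6.03. The median of all detected probes shifted by 0.14 and -0.07 under these settings, and the group's median then exceeded it by 6.30 and 6.14. These settings changed the input signal, the background method and the offset together, and the cause was not tested. Of the 111 probes with a spermatogonial level under -3, 36 still passed after normexp and 75th percentile scaling, against 65 of the other 108. The less strict detection flag gave 382 probes, all 219 among them, because more dim spermatogonial probes could enter. A threshold of 7 gave 127 probes by construction. The authors' value table, in which the median of all detected probes shifted by -0.15, gave 159 probes and a median of 6.81, and loess gave 237 probes, 215 of them shared, and a median of 7.24. With the median of detected probes as scale, all spots required above background, outlier spots kept, the median of spots, or a threshold of 6, the count stayed within 1.5 times, from 211 to 309. Requiring all spots above background could remove only probes with 3 spots. No difference of the 219 probes changed its sign under these settings, and since the probes were picked on the size of the difference, this is no sign of stability. The lowest was 4.57, under normexp with quantile scaling. The difference of CUST_10705_PI425928001 ranged from 7.97 to 8.80, and that of CUST_6290_PI425928308 from 5.81 to 6.64. The contig share of the group was 55.3% at a threshold of 6 and 50.4% at a threshold of 7. Signal over background limits at least the 49 probes within 1 log2 unit of the lowest detected level in spermatogonia. The brightest of 300 negative control spots there reached 109, above the selected probes' median signal of 93.2, although the 95th percentile of these spots was 5.91.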
